A study of Mus musculus with 4 samples.

Results

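The 2 RNA pools described here came from mVenus-positive cells sorted out of the genital ridges of wild-type mouse embryos at embryonic day 11.5. They were the 2 arrays labelled wild-type among the 4 of the series, whose other 2 carry RNA of HP1γ-/- embryos and were not used here. All embryos of the described pools carried a Blimp1-mVenus transgene, which drives the fluorescent protein mVenus from the control region of Blimp1 (Prdm1), and none lacked HP1γ. Each pool held RNA of 5 or 6 embryos with 500 to 3500 sorted cells per embryo, and 4 ng of total RNA was amplified, labelled with Cy3 and hybridised to 1 Agilent one-colour array. The labels call the cells primordial germ cells. The sort gate rested on the transgene alone as far as the labels say, and nothing in them says which sex the embryos were.

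Primordial germ cells are the embryonic precursors of eggs and sperm. They arise outside the gonad, migrate into the genital ridge, and there keep a network of pluripotency factors while they erase DNA methylation and begin to transcribe germline genes such as Ddx4 and Dazl. The genital ridge also holds somatic cells of the gonad, blood vessels, resident macrophages and mesenchyme, and it lies beside the mesonephros, the transient embryonic kidney.

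A level is given here as the log2 of a probe's processed signal minus the 75th percentile of that array, so that 0 is a signal at the 75th percentile and each unit is a doubling. The 75th percentile was 188 and 219 intensity units on the arrays of replicates 1 and 2, and 53.3% and 56.7% of the spots were marked well above background by the scanner software. A probe counts as measured where it was well above background on both arrays, which held for 21295 of 41162 probes, and a gene is represented by its brightest measured probe (11583 of 18322 named genes). A probe's signal also depends on its sequence and on where in the transcript it lies, so an order of brightness is an order of signals and not of transcript numbers. In bulk samples, fewer cells of a type and less RNA per cell cannot be told apart. With 1 array per pool there is no test between the pools, and differences are given as values beside those of all genes.

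The replicates gave nearly the same picture of most transcripts. Across the 21295 measured probes their levels correlated at r = 0.99 (Spearman 0.99), a description across probes of 2 arrays that share a slide. The SD of the 2 values, pooled over these probes, was 0.23 on the log2 scale, and 89.7% of the probes lay within 0.5 of each other. At least 2-fold apart were 342 probes (1.61%), of which 286 (1.34%) were lower and 56 (0.263%) higher in replicate 2. The spread depended on brightness. Among 5 equal groups of 4259 probes it was 0.35 in the dimmest and 0.12 in the brightest, and 214 probes of the dimmest group but 6 of the brightest were at least 2-fold apart. On the same array, spots of 1 probe printed 10 times had a median SD of 0.05 in either replicate (142 measured probes), while the SD between the pools for these probes was 0.29. The first value is a median over probes. The second is pooled over probes and weighs large differences more, so the 2 values are not like measures.

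**Figure D1:**
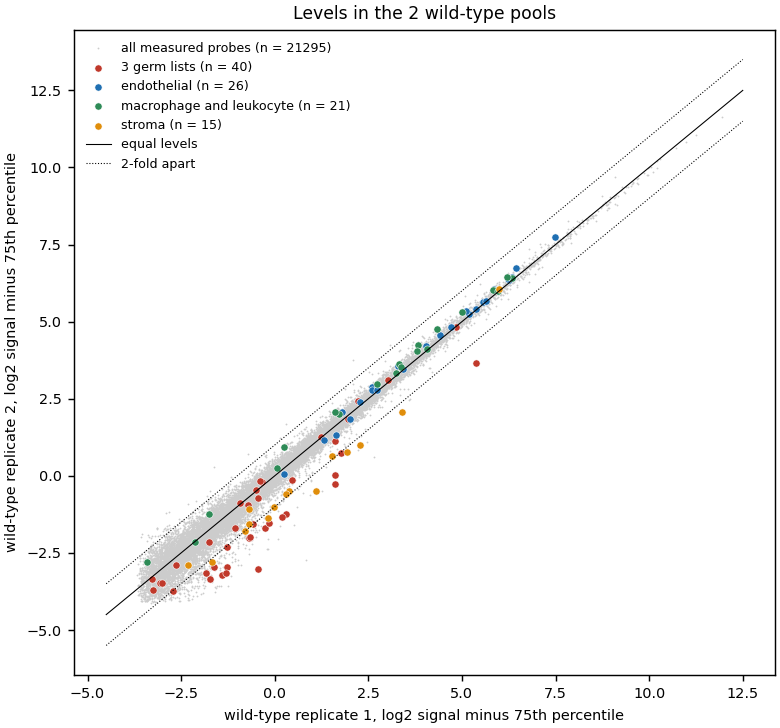
Levels of all 21295 measured probes in replicate 1 (x axis) and replicate 2 (y axis), as log2 signal minus the array's 75th percentile, with the genes of 3 germ cell lists, endothelium, leukocytes and stroma coloured. Endothelial and leukocyte genes lie along the line of equal levels, while many germ cell and stromal genes lie under it.

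The brightest signals came from the translation machinery. Of the 30 brightest named genes, 19 encode ribosomal proteins and 4 encode histones, with mean levels from 8.90 to 11.16. The brightest probe of all, A_51_P338803, was saturated on both arrays (11.96 and 11.63), and it has no gene name here. Lars2, the mitochondrial leucyl-tRNA synthetase gene, was the brightest named gene at 11.16 ± 0.13 (SD, n = 2), followed by Rplp1, a protein of the ribosomal stalk, at 10.67 ± 0.08. Rps12 and Rplp0, further ribosomal protein genes, read 10.20 ± 0.01 and 10.03 ± 0.01. Rn28s1, the 28S ribosomal RNA, read 9.97 ± 0.18. Among the histone genes, H2ac23 read 9.97 and 9.76 in replicates 1 and 2, and H2ac1 9.71 and 9.46. Lrrc58, which encodes a leucine-rich repeat protein, read 10.29 and 10.28, and Tmsb4x, the actin-binding thymosin β4, 9.26 and 9.27. Pool differences of the 30 genes ran from -0.25 to 0.33, and none was 2-fold apart, as 1.79% of all genes were. All 78 ribosomal protein genes measured had a median level of 8.13. Of these, 1 (1.28%) was at least 2-fold lower in replicate 2, where 1.57% of all genes were. It was Rpl39l, a paralog of Rpl39 known from germ cells (1.76 and 0.72).

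The reporter's own gene was measured alike in both pools. Prdm1, the transcriptional repressor Blimp1 that directs germ cell specification and also acts in other lineages, read 1.24 and 1.27. The heterochromatin genes of the HP1 family were also close, with Cbx3 (HP1γ) at 5.89 and 5.72, Cbx1 (HP1β) at 4.85 and 4.72 and Cbx5 (HP1α) at 0.79 and 0.94. These values give the wild-type baseline of the gene the series targeted.

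Vessel genes were among the brightest marker transcripts. All 26 endothelial genes with a probe were measured, with median levels of 4.41 in replicate 1 and 4.55 in replicate 2, against 0.69 and 0.71 for all measured genes. Of these 26, 15 stood among the 1158 brightest genes, a share of 57.7% where the background is 10%. Cd34, a surface sialomucin of endothelial and blood-forming cells, led the list at 7.50 and 7.76. Egfl7, a secreted factor of vessels, read 6.44 and 6.74. Robo4, a vascular guidance receptor, read 6.33 and 6.44. The endomucin gene Emcn, Ramp2 of the adrenomedullin receptor and Mmrn2 of the vessel matrix followed, with means of 6.30, 6.30 and 5.96. The defining receptors were bright as well. Kdr, the main VEGF receptor, read 5.19 and 5.26, and Cdh5, the cadherin of endothelial junctions, read 4.42 and 4.52. The second, dimmer probe of Cdh5 read 0.88 and 0.99. Pecam1, the adhesion molecule CD31, which early germ cells also carry, read 2.60 and 2.89. The dimmest member was Tek, the angiopoietin receptor, at 0.26 and 0.05, still near the 75th percentile. Differences between the pools ran from -0.32 for Vwf to 0.30 for Egfl7. None reached 2-fold, where 1.79% of all genes and 6 of the 4259 brightest probes did. In replicate 2, 22 of 26 genes were higher and 4 lower (median difference 0.11), where 45.9% of all genes were lower.

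Genes of arteries and of veins and lymphatics were both present. Of 13 arterial genes with a probe, 11 were measured (median 1.61 and 1.77), led by the Notch target Hey1 at 3.57 and 3.92. The connexin gene Gja4 read 3.17 and 3.54, Notch4 3.17 and 3.35 and the netrin receptor gene Unc5b 2.91 and 3.27. The artery-defining ligands Efnb2 and Dll4 had means of 2.73 and -0.98. Hey2 and Bmx were not well above background on either array. Among 9 of 10 venous and lymphatic genes measured (median 2.88 and 2.44), Stab1, a scavenger receptor of sinusoidal endothelium and macrophages, was brightest at 6.53 and 6.75. The second, dimmer probe of Stab1 read -0.02 and 0.31. The vein-specifying factor Nr2f2 read 2.95 and 2.44, the receptor gene Aplnr 3.09 and 3.02, and Ephb4, the venous partner of Efnb2, 0.48 and 0.62. Nrp2, a co-receptor of lymphatic growth factors, read 4.67 and 4.47, and Lyve1, a hyaluronan receptor of lymphatics and macrophages, 2.88 and 2.48. Prox1, the master factor of lymphatic fate, was dim at -1.94 and -2.42, and Pdpn, another lymphatic marker, was not well above background.

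Macrophage genes were measured throughout. All 21 macrophage and leukocyte genes with a probe were measured, with medians of 3.36 and 3.64. Of these, 10 (47.6%) stood among the 1158 brightest genes, where the background is 10%. Tyrobp and Fcer1g, signalling adaptors of myeloid receptors, read 6.35 and 6.41, and 5.82 and 6.03. Aif1, the macrophage protein Iba1, read 6.22 and 6.45. The lysosomal protease gene Ctss read 5.97 and 5.98, and C1qc, a chain of complement C1q, 5.89 and 6.02. Markers used to define tissue macrophages were clear. Adgre1, which encodes the surface antigen used to stain mouse macrophages, read 4.99 and 5.31, Csf1r, the receptor that macrophages need to survive, 3.81 and 4.24, and Mrc1, the mannose receptor, 4.34 and 4.75. The pan-leukocyte phosphatase gene Ptprc (CD45) read 2.74 and 2.97. The dimmest measured probes of Adgre1, Csf1r and Ptprc read -1.22 and -0.76, 1.28 and 1.95, and -1.09 and -0.70. The lowest members were Cd163, Timd4 and Spi1, with means of -1.50, -2.14 and -3.10. In replicate 2, 20 of 21 were the higher ones (median difference 0.23), where 45.9% of all genes were lower. The exception was Timd4 at -0.02, and the largest difference was that of the lysozyme gene Lyz2, at 0.24 and 0.95. With the arrays scaled to spiked-in control RNA, 0 of these 21, 1 of the 26 endothelial and 1203 of all 11583 genes were lower in replicate 2.

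**Figure D2:**
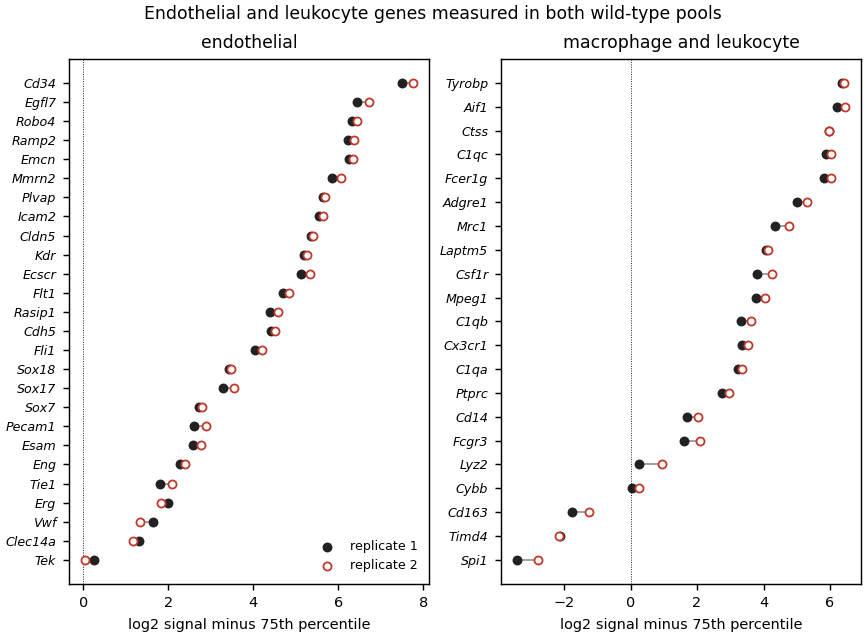
Levels of the 26 endothelial and 21 leukocyte genes measured, in replicate 1 (filled) and replicate 2 (open), on the x axis as log2 signal minus the 75th percentile. The pools lie within 2-fold of each other for each gene, where 1.79% of all genes and 6 of the 4259 brightest probes are at least 2-fold apart.

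Other blood lineages were patchy. Of 13 megakaryocyte, granulocyte and lymphoid genes, 7 were measured. The platelet factor gene Pf4, which fetal macrophages also express, read 6.91 and 7.08, and the calgranulin genes S100a9 and S100a8 of granulocytes had means of 5.37 and 3.78. Mpo, the myeloperoxidase of granulocyte precursors, read 1.49 and 1.19, and Ppbp and Gp9 of platelets had means of -0.86 and -2.52, Gp9 being lower by -1.42 in replicate 2. Elane, Itga2b, Il7r and Rag1 were not well above background. Of 8 blood progenitor genes 5 were measured, Gata2 and Lmo2 leading at means of 1.21 and 0.38, with Runx1 at -0.76 and -0.33 and Mecom at -1.29 and -0.62. Red cell transcripts were weak. The erythropoietin receptor gene Epor was the brightest of the list at 0.76 and 1.33. The adult-type globin gene Hbb-bt read 0.51 and 1.30, the embryonic globin gene Hbb-bh1 -0.95 and -2.01, and Hba-a1 -1.12 and -1.02, while the erythroid genes Alas2, Klf1 and Gata1 were not well above background. The globin genes share much sequence, so their probes may not separate them. All 4 measured probes of Hbb-bt were higher in replicate 2, by 0.64 to 1.20, and both of Hbb-bh1 were lower.

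Germ cell transcripts were present in both pools, most of them with signals under the 75th percentile. Of 16 germ cell identity genes, 14 had a named probe and 13 were measured. Their median level was -0.25 in replicate 1 and -0.96 in replicate 2. The 15 measured of 17 pluripotency genes with a probe had medians of -1.40 and -2.94, and the 12 measured of 25 later germ cell genes -0.48 and -1.65. Of these 40 genes, 2 (5%) stood among the 1158 brightest, Dppa5a and Klf2, where the background is 10%. Klf2 and Klf4, pluripotency factors that vessels also express strongly, read 4.84 and 4.82, and 2.22 and 2.43, and Tdrd7, of germ granules and other tissues, 3.03 and 3.09. Kit, Nanog and Prdm14 had no named probe here. Set against the label of primordial germ cells, the germ cell genes Dppa3, Pou5f1, Ddx4 and Dazl were measured in both pools. Nanos3 was not well above background on either array. In replicate 2, Pou5f1 and Dazl were dim at -3.34 and -3.02, where the lowest level well above background was -4.11. All endothelial and macrophage genes with a probe were measured. The share of each cell type was not measured.

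The pools differed in many germ cell genes. Of the 40 measured genes in these 3 lists, 19 were at least 2-fold lower in replicate 2 and none was 2-fold higher, where 1.57% of all 11583 measured genes were lower and 0.216% higher by that much. By list these were 6 of 13 identity genes, 7 of 15 pluripotency genes and 6 of 12 later germ cell genes, and the median differences were -0.96, -0.65 and -0.83 against 0.02 for all genes. When the arrays were scaled to spiked-in control RNA instead, all differences rose by 0.31, the 3 medians became -0.65, -0.35 and -0.52, and the genes at least 2-fold apart split into 92 lower and 133 higher in place of 182 and 25. Under normexp background correction with an offset, which compresses differences of dim probes, 4 of the 40 genes were 2-fold lower (1 identity, 1 pluripotency and 2 later germ cell genes), and 23 of all genes.

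Among the identity genes, Dppa3 (Stella), which later protects DNA methylation in the zygote, read 1.60 and -0.26, a 3.63-fold difference. Tfap2c, which acts with Prdm1 in specification, read -0.69 and -2.02. Alpl, the alkaline phosphatase used to stain germ cells, read -0.25 and -1.69. Each of these was higher in replicate 1, by 1.33 to 1.86 in size, where the pooled SD was 0.15 to 0.27 among probes of like brightness. This SD is that of a single pool's value, and a difference between pools spreads more widely. Elavl2, an RNA-binding protein gene, read 0.31 and -1.23, and the integrin gene Itgb3 -0.14 and -1.55. The surface genes Ifitm1 and Ifitm3 (Fragilis) read 1.77 and 0.73, and 1.60 and 1.14, and Dnd1, a germ cell RNA-binding factor, -0.59 and -1.55. Prdm1, Cxcr4, Fut4, Sall4 and Lin28a had smaller differences, between -0.24 and 0.14. Nanos3, needed for germ cell survival, was not well above background on either array.

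Among the pluripotency genes, Dppa5a, known from embryonic stem and germ cells, was the brightest after Klf2, at 5.37 and 3.66, a 3.26-fold difference that its second probe also showed (2.64 and 0.62). Pou5f1 (Oct4), the core factor of the network, read -1.73 and -3.34. Sox2, its partner, read -1.84 and -3.15. Both core factors lay among the dimmer probes, whose pooled SD was 0.35, and both read lower in replicate 2. Zfp42 (Rex1) read -1.28 and -2.95, Dppa4 -1.40 and -3.23, Tfcp2l1 -1.62 and -2.94 and Utf1 -2.72 and -3.72. Esrrb and Dppa2 differed by less, at -1.05 and -1.70, and -1.75 and -2.15. Tdgf1, a Nodal co-receptor gene, was well above background in replicate 1 only and was at least 3.30-fold higher there. Mycn and Lin28b, which many embryonic cells express, differed by -0.10 and 0.23.

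Among later germ cell genes, Dazl, an RNA-binding regulator of gametogenesis, had the largest difference of any germ gene measured, at -0.45 and -3.02, or 5.93-fold. Ddx4 (Vasa), the helicase of germ granules, read 0.19 and -1.32. Mael, of the piRNA pathway, read -1.31 and -3.16. Ddx4 lay near the 75th percentile in replicate 1 and the other signals below it, and all 3 genes were higher in replicate 1. Tex19.1, a methylation-sensitive germline gene, read 1.62 and 0.04, the meiotic cohesin gene Smc1b -0.66 and -1.98 and Hormad1 of the meiotic chromosome axis -1.27 and -2.31. Stra8 and Rec8, induced at meiotic entry, differed by less, at -2.63 and -2.88, and -0.51 and -0.46. Asz1, Gtsf1, Piwil2 and Slc25a31 were well above background in replicate 1 only, at least 1.62-, 1.78-, 1.51- and 1.87-fold higher there. With Tdgf1 these were 5 of the 56 germ list genes with a probe, and none was well above background in replicate 2 only, while over all 18322 named genes 1.34% were so in replicate 1 only and 3.26% in replicate 2 only. Sycp1, Sycp2, Tdrd5, Tdrd9, Mov10l1, Taf7l, Tex14, Nanos2 and Brdt were not well above background on either array.

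**Figure D3:**
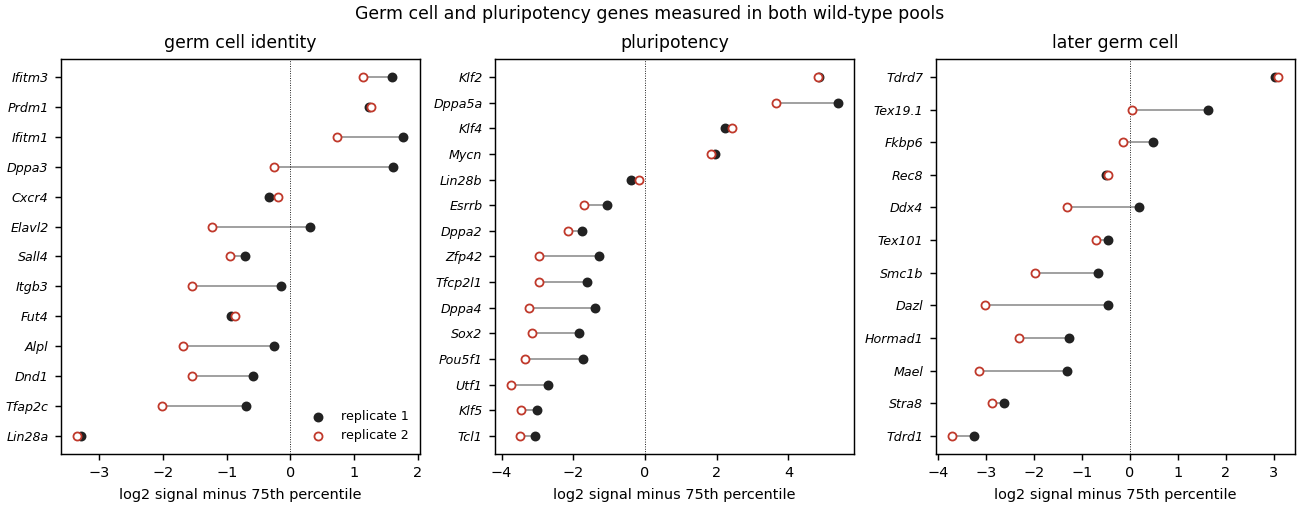
Levels of the 40 germ cell identity, pluripotency and later germ cell genes measured, in replicate 1 (filled) and replicate 2 (open), on the x axis as log2 signal minus the 75th percentile. In 33 of the 40 genes the open point lies to the left, while genes such as Prdm1, Klf2 and Tdrd7 read nearly the same in both pools.

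Shown by their promoter are 3 of the later germ cell genes that were lower in replicate 2, picked with a window that holds an E-box, CACGTG. Germline promoters of this class are known to carry this E-box, which factors silencing them outside the germline bind. The windows run from 250 bases before to 50 bases after the gene start, from RefSeq on GRCm38.p6, 5′ to 3′ with each CACGTG in capitals.
Ddx4, chr13:112652261-112652560 (minus strand): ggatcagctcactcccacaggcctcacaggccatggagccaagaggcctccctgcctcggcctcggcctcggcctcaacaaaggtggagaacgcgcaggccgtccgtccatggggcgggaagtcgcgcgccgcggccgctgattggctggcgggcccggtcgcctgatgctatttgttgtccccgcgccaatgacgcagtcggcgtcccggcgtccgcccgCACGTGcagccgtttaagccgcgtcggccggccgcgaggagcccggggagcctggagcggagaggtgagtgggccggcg
Mael, chr1:166238695-166238994 (minus strand): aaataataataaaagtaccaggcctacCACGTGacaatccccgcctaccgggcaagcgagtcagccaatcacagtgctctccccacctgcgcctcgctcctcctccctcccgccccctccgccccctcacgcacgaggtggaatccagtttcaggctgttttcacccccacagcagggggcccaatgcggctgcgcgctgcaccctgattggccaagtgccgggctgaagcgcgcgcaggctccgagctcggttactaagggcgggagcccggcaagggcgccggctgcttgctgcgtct
Hormad1, chr3:95559427-95559726 (plus strand): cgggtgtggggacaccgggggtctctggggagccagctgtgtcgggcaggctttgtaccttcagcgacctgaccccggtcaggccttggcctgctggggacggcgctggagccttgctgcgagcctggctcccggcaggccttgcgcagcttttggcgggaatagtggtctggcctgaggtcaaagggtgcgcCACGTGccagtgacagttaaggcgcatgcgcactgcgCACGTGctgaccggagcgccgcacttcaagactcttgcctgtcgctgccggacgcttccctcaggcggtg
The Hormad1 window holds 2 matches and the other windows 1 each. All 12 measured later germ cell genes had a window, and 5 of them held the hexamer (Ddx4, Mael, Hormad1, Tdrd1 and Fkbp6), against 11.9% of the 9296 measured genes with a window and 8.09% of all 27025 genes with one. Dazl, with the largest difference, had no match, nor had Smc1b and Tex19.1, which were also at least 2-fold lower. Tdrd1 and Fkbp6, with a match, differed by -0.46 and -0.62. Over the 3 germ lists, 3 of the 14 genes with a window among those at least 2-fold lower in replicate 2 held the hexamer (21.4%), against 4 of 17 among the other measured germ genes (23.5%), and 0 of 8 identity genes did. Of the lower germ genes 5 had no window, and of the identity genes 5, so these shares cover the lists only in part. Of the same 12 genes, 0 held the octamer ATGCAAAT and 1 the ETS-type sequence CCGGAAGT, where 1.69% and 9.23% of the measured genes with a window did. A reverse complement also counted as a match, a gene with several windows counted where any of them matched, and the 3 sequences were chosen after the levels had been seen.

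Stromal genes were measured in full and differed between the pools in the same direction as germ cell genes. All 15 were measured, with medians of 0.29 and -0.59, and 7 were at least 2-fold lower in replicate 2, where 1.57% of all genes were. The fibrillar collagen genes Col1a2 and Col1a1 read 3.39 and 2.08, and 2.28 and 0.98, and both further probes of Col1a1 were lower in replicate 2 as well. Col3a1, another fibrillar collagen gene, read 1.92 and 0.77. Dcn, the matrix proteoglycan decorin, had the largest difference of the list, at 1.11 and -0.50. The mesenchymal receptor genes Pdgfra and Pdgfrb read -0.69 and -1.57, and -0.03 and -1.01. Acta2, the smooth muscle actin, stood apart as the brightest member, at 5.98 and 6.05 by its brightest probe, although its second, dimmer probe read 0.83 and 0.02. The median difference of the list was -0.98, -0.67 with scaling to spiked-in RNA and -0.71 with normexp, where 2 and 4 genes of the list and 0.794% and 0.199% of all genes were 2-fold lower.

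Gonadal somatic genes were mostly weak. Of 24 with a probe 9 were measured, 5 were well above background in 1 pool and 10 in neither. Cyp17a1, a steroid hydroxylase gene, was the brightest at 3.58 and 3.29 by its only measured probe. Cyp11a1 and Hsd3b1, other genes of steroid synthesis, were not well above background on either array. Kitl, the ligand of Kit, followed Cyp17a1 at 1.41 and 1.55, and then the Polycomb gene Cbx2 at 0.75 and 0.81. Wt1, the factor of the gonadal and renal mesoderm, read 0.62 and -0.44. Amhr2, the receptor of anti-Müllerian hormone, read -0.50 and -1.46, and Rspo1, an activator of Wnt signalling in the ovary, -0.46 and -1.43. Nr0b1 read -2.03 and -3.58, the largest difference of the list. Gonad-defining factors were partly below detection. Gata4, Emx2, Wnt4, Sry and Foxl2 were not well above background on either array, Lhx9 and Tcf21 were so in replicate 1 only, at least 2.45- and 1.99-fold higher there, and Nr5a1 and Star in replicate 2 only, at least 2.15- and 1.67-fold higher there. Amh, the anti-Müllerian hormone gene, was so in replicate 2 only, with no bound on its difference. The median difference of the 9 measured genes was -0.61, with 2 genes at least 2-fold lower, where 1.57% of all genes were. With normexp and with spike-in scaling, 0 and 1 of the 9 genes were 2-fold lower, where 0.199% and 0.794% of all genes were.

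Epithelial and mesonephric genes were also near the detection limit. Of 14 genes 8 were measured (median -2.30 and -3.11), the keratin gene Krt18 leading at 0.65 and -0.03. The adhesion gene Epcam read -2.03 and -3.27 and Cdh16, of renal tubules, -1.97 and -3.12, both at least 2-fold lower in replicate 2 (1.57% over all genes). Gata3 went the other way, at -2.99 and -2.21. With normexp and with spike-in scaling, 0 of the 8 genes were 2-fold lower, where 0.199% and 0.794% of all genes were. The kidney factors Pax2 and Pax8 and the receptor gene Ret were not well above background. The markers of distant tissues were largely below detection. Of 13 neural, muscle and liver genes 4 were measured, Actc1, the cardiac actin, at 0.82 and 0.83 and Stmn2, Elavl4 and Afp with means of -1.53, -1.59 and -1.60, while Alb, Apoa1, Ttr, Des and Sox10 were not well above background.

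**Figure D4:**
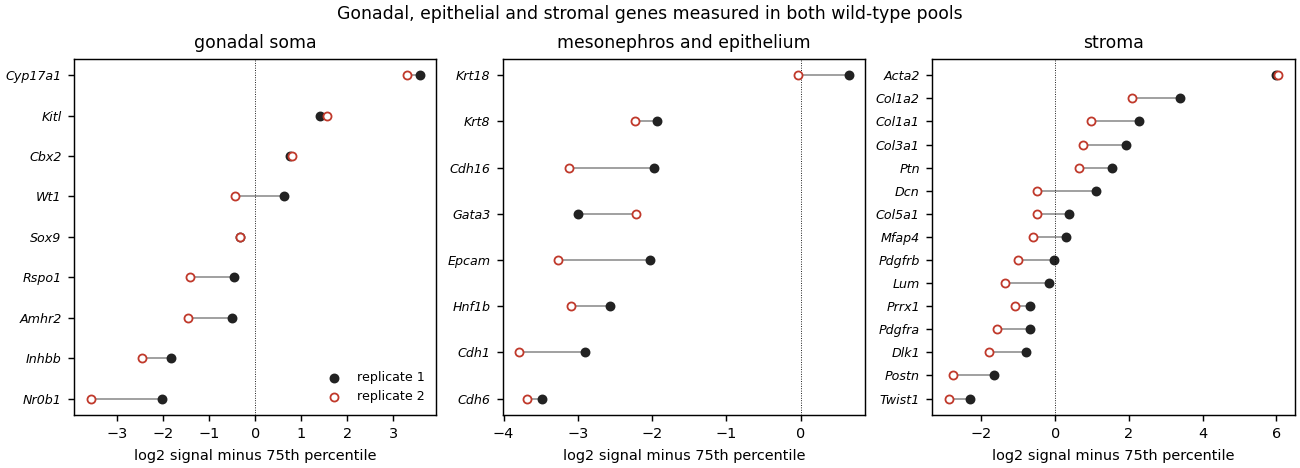
Levels of the gonadal (9), epithelial (8) and stromal (15) genes measured, in replicate 1 (filled) and replicate 2 (open), on the x axis as log2 signal minus the 75th percentile. In 14 of 15 stromal genes replicate 2 reads lower, Acta2 being the exception.

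Proliferation genes were bright and matched closely between the pools. All 14 S phase genes with a probe were measured (median 4.08 and 4.06), led by the replicative helicase gene Mcm6 at 5.98 and 6.00, and so were all 16 genes of G2 and mitosis (median 2.45 and 2.39), led by the survivin gene Birc5 at 6.47 and 6.38 and Mki67, the Ki-67 antigen, at 5.16 and 5.24. None of the 30 was 2-fold apart, where 1.79% of all genes and 6 of the 4259 brightest probes were. Genes of DNA methylation were equally close, with Uhrf1, which recruits the maintenance methyltransferase, at 4.14 and 4.06, Dnmt1 at 1.21 and 1.27 and Dnmt3b at 0.16 and 0.15. Dnmt3l was not well above background, and all 8 measured genes differed by -0.10 to 0.36, Apobec1 being the highest. Housekeeping genes had medians of 5.56 and 5.53. Genes induced by tissue dissociation were measured in both pools (13 of 14, median 1.73 and 2.09), the brightest being Junb at 5.19 and 5.57 and Jund at 3.77 and 3.84, and Fos read 2.27 and 2.93. Sex-linked transcripts were also unequal. Xist, the RNA of the inactive X chromosome, read 4.15 and 3.49, and all 4 of its measured probes were lower in replicate 2, by 0.66 to 0.88 in size. Of the Y-linked genes, Eif2s3y read 0.83 and 1.17, Ddx3y -0.82 and -0.19 and Kdm5d -2.20 and -1.19, and Uty was well above background in replicate 2 only. Both pools thus held female and male transcripts, in unequal measure. The part of embryo sex in the other pool differences was not tested.

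**Figure D5:**
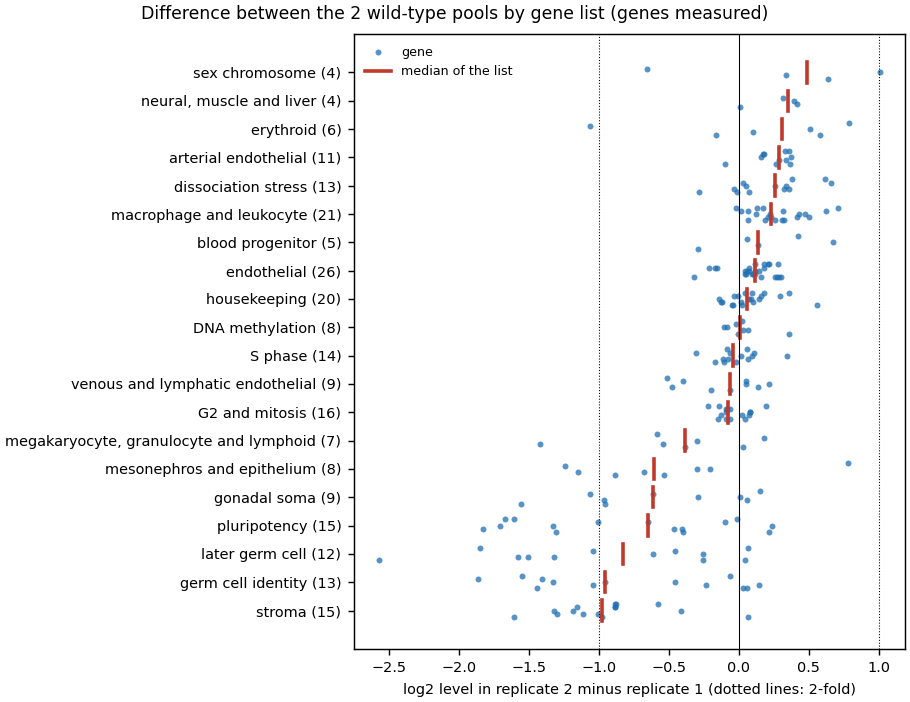
Difference in level between the pools (x axis, replicate 2 minus replicate 1, log2) for each measured gene of the 20 lists, with the median of each list in red and the number of genes in brackets. The stromal and germ cell lists have the lowest medians, -0.98 to -0.65, closely followed by the gonadal and epithelial lists at -0.61 and -0.60. Endothelial, leukocyte, housekeeping and cell cycle lists lie between -0.08 and 0.28 (with spike-in scaling, the negative medians of the S phase, G2 and venous lists become 0.26, 0.23 and 0.24).

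Across all genes, 182 of 11583 were at least 2-fold lower and 25 at least 2-fold higher in replicate 2. Of the 182, 19 are among the 40 measured germ list genes and 7 among the 15 stromal genes. Another 2 are among the 9 gonadal and 2 among the 8 epithelial genes, and 150 are in no list used here. The 26 endothelial, 11 arterial, 9 venous and lymphatic and 21 leukocyte genes measured held 0, where 1.57% of all genes were 2-fold lower. Of the 4259 brightest probes, 6 were 2-fold apart in either direction. Among genes at or above the 75th percentile, the largest differences downwards were those of Dppa3, Dppa5a, Dcn and Tex19.1, given above. Next came Plac9a, which encodes a small secreted protein, at 0.94 and -0.63, the X-linked homeobox gene Rhox9 at 2.23 and 0.85 and the glutathione transferase gene Gstm2 at 2.45 and 1.10. Aldh1a2, the retinoic acid synthesis enzyme of the mesonephros, read 0.75 and -0.55, and Col1a2 and Col1a1 completed the 10. The largest difference upwards was that of the endosomal GTPase gene Rab5c, at 2.10 and 3.76, by its only measured probe. The translation factor gene Eif5a read 3.07 and 4.23, and its second probe 0.84 and 1.60. The other 8 were less than 2-fold apart. They were the leukocyte genes Fermt3 (-0.26 and 0.65) and Clec10a, a lectin of macrophages (2.09 and 2.99), as well as the lipid droplet gene Plin2 (5.47 and 6.22), the lectin gene Fcna (-0.02 and 0.78), Hbb-bt, Hoxd4 (0.64 and 1.40), Oit3 (-0.22 and 0.67) and the guanine nucleotide exchange factor gene Arhgef6 (-0.24 and 0.60). Of 16 genes that were at least 2-fold lower by their brightest probe and had several measured probes, 15 were lower by every probe. These 16 were picked by 1 of the probes compared. Of all 4130 genes with several measured probes, 956 were lower by every probe.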

How the data were processed

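The intensity values were deposited by the authors as Agilent Feature Extraction output (version 10.7.3.1, per the submitters' processing notes). Per the file headers, background and spatial trend were removed array by array and arrays were not scaled to each other. The deposited table of values holds the same intensity values rounded, within 0.49% of the processed signal. The 2 pools are separate embryo pools per the labels, with 1 array each on 1 slide. Amplification from 4 ng of RNA can add noise to dim probes.

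Computed here were log2 values minus the array's 75th percentile over 43379 non-control spots, averaging the spots of a probe and leaving out outlier spots (88 and 104), which removed 12 of 41174 probes. A probe with several spots counted as well above background where at least as many of its spots were so marked as not. Probe accessions were matched to RefSeq names of GRCm38.p6, naming 26879 probes. No coordinates of probes are given, as the array design used another assembly. Bounds (at least N-fold) set a level against the higher of the dim probe's own level and the lowest level well above background on that array (-3.68 and -4.11). Python 3.11.15, pandas 2.3.3, R 4.3.3 and limma 3.58.1 were used, and the functions were tested on simulated data. The number of arrays limits the precision.

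The members and the 20 gene lists were chosen with earlier results of these data known. The genes named were drawn, not in full, from the 30 brightest, from each list the 6 brightest and the 2 with the largest pool difference, any germ list gene, the 10 largest pool differences each way among genes with a mean level of at least 0, a fixed set of levels (Prdm1, Cbx genes, Xist and core germ genes), and list members not well above background. Other members were named after their values were seen, as known markers of their cell type. Alternatives were normexp (offset 50, on median spot and background signals), quantile normalization, centring on detected probes, spike-in scaling, no dim filter, flags kept, the value table, the mean over probes, and leaving out either pool.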

Additional observations from a re-analysis of the deposited data

How the results depend on the processing

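No paired analysis was possible because only 1 group of 2 pools is described, so replicate numbers pair nothing. The deposited value table, kept outlier flags and quantile normalization moved no probe count by over 1.5 times and none of the 6 median levels below by as much as the SD between the pools' medians. Under them the genes at least 2-fold lower went from 7 to 6 in the pluripotency list (value table, quantile), from 7 to 6 in the stromal list (quantile) and from 2 to 3 in the epithelial list (flags kept). The median pool differences of these 6 lists kept their sign under every setting tried, while that of the venous and lymphatic list went from -0.06 to 0.24 with spike-in scaling. In the order germ cell identity, pluripotency, later germ cell, endothelial, leukocyte and gonadal, spike-in scaling put the median levels at -1.96, -3.24, -2.07, 3.36, 2.36 and -1.45 in place of -0.84, -2.12, -0.95, 4.48, 3.48 and -0.33. Normexp gave 3.95, 3.18 and -0.21 for endothelial, leukocyte and gonadal levels, an SD between pools of 0.15 and 32 probes at least 2-fold apart in place of 342. Centring on detected probes gave 4.65 and -0.17 for endothelial and gonadal levels. The mean over probes gave 3.78 and 2.44 for endothelial and leukocyte levels, and 20 of the 30 brightest genes were shared with it. With no dim filter (41162 probes) the SD was 0.42, 3065 probes were 2-fold apart, and the gonadal and later germ cell levels were -3.77 and -4.04. Without either pool, in the same order of lists, levels lay between -0.96 and -0.25, -2.94 and -1.40, -1.65 and -0.48, 4.41 and 4.55, 3.36 and 3.64, and -0.44 and -0.34. Each pool has 1 array, so germ and stromal levels rest on values that differ between the pools.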

Other observations

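Genes of the Rhox cluster, X-linked homeobox genes active in germ cells and extraembryonic tissue, were chosen after their values were seen. Of 7 named on the array 5 were measured, all 5 were lower in replicate 2 and 4 by at least 2-fold, with a median difference of -1.15, where 45.9% of all genes were lower and 1.57% at least 2-fold lower. Rhox5 read 3.59 and 2.45, and Rhox6 0.98 and -0.17. The metabolic genes Tdh, the threonine dehydrogenase known from pluripotent cells, and Ldhb, a lactate dehydrogenase, were likewise singled out, at 2.34 and 1.07, and 3.61 and 2.50. In the other direction, the leukocyte genes Pirb, Sla and Lgals3 read 3.69 and 4.36, 0.74 and 1.40, and 0.81 and 1.53. The stromal genes Igfbp5 and Sfrp1 read 1.36 and 0.28, and 0.90 and -0.08.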
